A study of Homo sapiens with 4 samples.

Results

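LNCaP prostate cancer cells grown together with fibroblasts in an engineered tissue were compared with LNCaP cells grown alone in the same kind of tissue. Every gene at 1 CPM or more (its count divided by the library total, times 1000000) in at least 1 of the 2 libraries was taken, which left 14119 genes of the 17791 in the table. The tissues were hydrogels of poly(ethylene glycol) and fibrinogen with the cells encapsulated in them, and RNA was taken at day 15 with no treatment. LNCaP is an androgen-dependent line from a lymph node metastasis of prostate cancer. BJ-5ta, the fibroblast used, is a normal foreskin line immortalised with telomerase and does not come from the prostate. The coculture held 5 LNCaP cells to 1 BJ-5ta cell at seeding, and the monoculture held LNCaP cells only. A matching pair of tissues with PC-3 cells, a castration-resistant line, is set beside the LNCaP pair where it helps to place a value. Each group had 1 library, so a difference compares libraries and not conditions, it has no replicate check, and no test between groups could be run. The labels describe the culture of PC-3 tissues only, and which medium the LNCaP tissues had was not known. RNA came from more than 2 tissues a group, and whether these were pooled before sequencing was not stated.

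Fibroblasts build the collagen matrix of a tissue and remodel it with secreted proteases, and they release growth factors that act on neighbouring epithelial cells. In the prostate, epithelial growth and differentiation depend on androgen, and part of that control passes through the stroma. Ribosomal protein genes, respiratory chain genes and cell cycle genes follow the growth state of a cell, and interferon-stimulated genes follow its antiviral signalling.

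The LNCaP libraries were of like depth, with 15860990 counts in the monoculture and 15520263 in the coculture, so a count of 0 allows up to 0.189 and 0.193 CPM (3 counts). Ribosomal RNA genes took 1.46% and 1.23% of counts. The 7 LNCaP markers summed to 8961 CPM alone and 10871 CPM with fibroblasts, and all 7 were at 1 CPM or more in either library. Of 12 fibroblast markers, 3 reached 1 CPM in the LNCaP monoculture and 12 in the coculture, and their sum was 32.0 and 683 CPM. The 5 PC-3 markers summed to 108 and 422 CPM. Of 6 endothelial markers, 5 were in the table and summed to 11.1 and 37.0 CPM; VWF (171 and 567 counts) alone reached 1 CPM, and KDR was at 0 in both libraries. Of 8 blood and immune markers, 3 were in the table and summed to 4.48 and 15.98 CPM; CD68 (67 and 245 counts) alone reached 1 CPM. The part of such cells in any result was not tested. PC-3 carry-over was checked with 212 genes that the PC-3 monoculture held at 20 CPM or more and the LNCaP monoculture at 3 counts or fewer. In the LNCaP coculture 135 of them were above 3 counts and 77 were not, 44 of these at 0. Fibroblasts can express many of the same genes, so fibroblast RNA and carry-over cannot be told apart for the 135.

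Folds are ratios of CPM with an exact 95% interval that covers counting error only. Variation between tissues or libraries is not in it, because each group had 1 library. Reads counted with no molecular tags may also repeat a molecule, so even the counting error may be larger. Log2 folds add a prior count of 2. By the log2 fold, 645 genes lay 2-fold or more above the monoculture (4.57%) and 423 that far below (3.00%). At 1.5-fold the counts were 1127 higher (7.98%) and 1244 lower (8.81%), and the median over all 14119 genes was 0.01, with 50.7% above 0 and 49.3% below. For 439 higher genes (3.11%) and 92 lower genes (0.652%) the whole interval lay past 2-fold.

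The higher and the lower genes sat at different levels of expression. Of 576 genes under 1 CPM in the LNCaP monoculture, 456 were at least 2-fold higher, a direction that the 1 CPM rule itself favours, because such a gene enters only through the coculture. In the gene lists such members are therefore counted apart, and the others are read against all 13543 genes at 1 CPM or more alone, of which 189 lay 2-fold or more above (1.40%) and 423 that far below (3.12%). The rule works the other way too, for genes that enter only through the monoculture. Among 2108 genes at 1 to 5 CPM, 143 lay 2-fold or more above the monoculture and 273 that far below. Well-expressed genes, at 20 CPM or more in LNCaP cells alone, numbered 8464, of which 12 lay 2-fold or more above (0.142%) and 67 below (0.792%). The plot of log2 fold against monoculture level shows this shape.

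**Figure D1:**
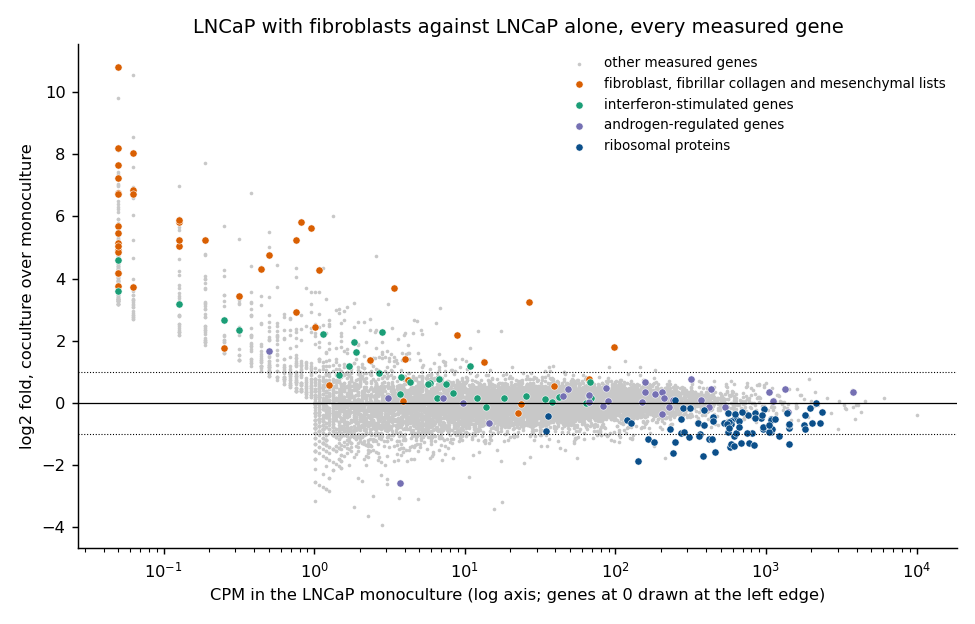
Log2 fold of the LNCaP coculture over the monoculture (y axis) against CPM in the monoculture (log x axis), 1 point per gene of 14119, with 4 groups of gene lists in colour and dotted lines at 2-fold. Fibroblast, collagen and mesenchymal genes lie high at the left, where the monoculture had few counts, and ribosomal protein genes lie below 0 at the right.

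Genes that LNCaP cells alone did not express made up 251 of the 645 higher genes, by a rule that fixes their direction. These 251 were at 3 counts or fewer alone and at 1 CPM or more with fibroblasts, and they held 31192 counts, or 0.201% of the coculture library. In the PC-3 pair the same rule found 100 genes with 0.0555% of counts. Taking both pairs, 81 genes were at 3 counts or fewer in each monoculture and reached 1 CPM in at least 1 coculture, and 66 of them belong to the 251. Of the 81, 58 were higher in the LNCaP coculture and 23 in the PC-3 coculture, and their summed level was 756 and 426 CPM, a ratio of 1.77. In bulk RNA, more fibroblasts, more RNA per fibroblast and expression switched on in LNCaP cells cannot be told apart.

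The most counted of these genes encode matrix and its enzymes. COL6A3, a chain of type VI collagen, had 1 count alone and 4449 with fibroblasts. TIMP3, an inhibitor of metalloproteinases (chr22:32801705-32863041, RefSeq on GRCh38.p14, as for all positions here), had 3 and 1040 counts, a 354-fold difference (121 to 1721). TIMP1, another inhibitor, had 0 and 246 counts and was at least 83.8-fold higher. The caveolar coat protein gene CAV1 had 0 and 297 counts (at least 101-fold), and the ectoenzyme gene ANPEP 0 and 314 (at least 107-fold). DKK3, a secreted Wnt modulator, had 2 and 494 counts, and CD248, a surface marker of mesenchymal cells, 1 and 310. All of these were near the floor in the monoculture and at 15 CPM or more in the coculture. ANXA2P2 (1 and 362 counts) is a pseudogene of ANXA2, so its reads are uncertain.

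Whether such a gene told the PC-3 tissues apart depended on what PC-3 cells expressed themselves. CAV1 had 1047 and 1128 counts in the PC-3 libraries, alone and with fibroblasts. For MMP2, which encodes a gelatinase, the PC-3 libraries had 0 and 617 counts and the LNCaP libraries 0 and 1779. MXRA5, a matrix protein gene, had 0 and 131 counts with PC-3 cells and 0 and 262 with LNCaP cells. The plot of the 16 most counted genes shows both kinds.

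**Figure D2:**
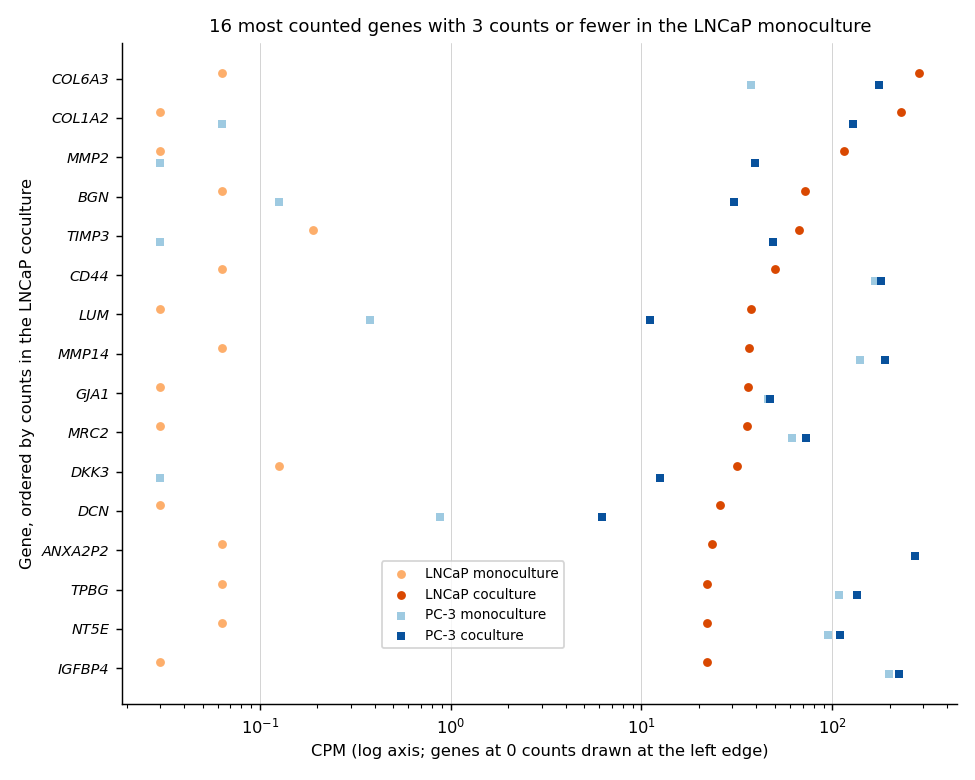
CPM (log x axis) in each of the 4 libraries for the 16 genes with the most counts in the LNCaP coculture among genes with 3 counts or fewer in the LNCaP monoculture, 1 row per gene. Points at the left edge are genes at 0 counts. All 16 lie above 20 CPM in the LNCaP coculture, and several, among them CD44 and TPBG, were high in both PC-3 libraries.

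Several collagen chains were higher in the coculture, at low and at high levels in LNCaP cells. Of 8 measured fibrillar collagen genes, 3 entered only through the coculture, and of the 5 others 3 lay 2-fold or more above the monoculture and 0 that far below. COL1A1, a chain of type I collagen that LNCaP cells alone held at 26.8 CPM, had 425 and 3946 counts and was 9.49-fold higher (8.58 to 10.5). COL3A1, type III collagen, had 54 and 711 counts and was 13.5-fold higher (10.2 to 18.1), and COL5A1, a chain of type V collagen, had 17 and 362 counts (21.8-fold, 13.4 to 37.8). Its partner chain gene COL5A2 had 376 and 354 counts, a fold of 0.962 (0.830 to 1.12), so these partner chains differed in fold. Type VI collagen was uneven in the same way: COL6A1 had 4319 and 5266 counts (1.25-fold) and COL6A2 1597 and 5352 (3.42-fold, 3.24 to 3.62), beside 1 and 4449 for COL6A3. THBS1, thrombospondin 1, had 275 and 1352 counts (5.02-fold, 4.41 to 5.74), and SPARC, a collagen-binding glycoprotein, 13 and 830. Of 20 measured matrix glycoproteins and proteoglycans, 8 entered only through the coculture, and of the other 12, 6 lay past 2-fold upward and 0 downward. FN1, fibronectin, was already at 14219 counts alone and at 20421 with fibroblasts, 1.47-fold higher (1.44 to 1.50).

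Basement membrane genes were split by their level in LNCaP cells. Of 18 measured, 7 entered only through the coculture, and of the other 11, 1 lay past 2-fold upward and 0 downward. COL4A1 and COL4A2, the main chains of type IV collagen, had 0 and 81 counts (at least 27.6-fold) and 14 and 202 (14.7-fold, 8.59 to 27.5). The 7 members that LNCaP cells alone held at 20 CPM or more had a median log2 fold of -0.27 and 0 of them reached 2-fold. LAMA3, a laminin chain of epithelial basement membranes, had 773 and 432 counts and was 1.75-fold lower (1.55 to 1.97), and LAMA5, another laminin chain, was 1.30-fold lower (2868 and 2154 counts).

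Most matrix protease and inhibitor genes were under 1 CPM in LNCaP cells alone, and folds were smaller where LNCaP cells expressed them. The list as a whole summed to 2229 CPM alone and 2755 CPM with fibroblasts. Of 26 measured proteases and inhibitors, 15 entered only through the coculture, and of the other 11, 2 lay past 2-fold upward and 0 downward, with a median of 0.33. MMP14, the membrane-bound metalloproteinase that activates pro-MMP2, had 1 and 566 counts, and MMP1, a collagenase, 0 and 220 (at least 74.9-fold). PLAT, tissue plasminogen activator, was 13.3-fold higher (15 and 195 counts, 7.86 to 24.2), and the protease receptor gene PLAUR 13.7-fold (7 and 94 counts, 6.41 to 35.1). TIMP2, which LNCaP cells expressed at 2006 counts, was 1.64-fold higher at 3216 (1.55 to 1.73). Of 20 measured collagen processing genes, 3 entered only through the coculture, and of the other 17, 6 lay past 2-fold upward and 0 downward. LOXL2, a lysyl oxidase that cross-links collagen, had 18 and 395 counts, and the collagen chaperone gene SERPINH1 52 and 280 (5.50-fold, 4.08 to 7.55). P4HA1, a prolyl hydroxylase that LNCaP cells already expressed, was 1.21-fold higher (5264 and 6216 counts).

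Contractile genes, which mark activated fibroblasts, were less uniform. Of 13 measured, 2 entered only through the coculture, and of the other 11, 3 lay past 2-fold upward and 0 downward, with a median of 0.16. The LNCaP monoculture already had 75 counts of smooth muscle actin, ACTA2, and the coculture 130, a 1.77-fold difference (1.32 to 2.39). The actin-binding gene TAGLN had 184 and 291 counts (1.62-fold, 1.34 to 1.95). TPM2, a tropomyosin, had 16 and 206 counts. CALD1, caldesmon, was lower, with 8581 and 7025 counts (1.20-fold lower, 1.16 to 1.23). ACTA2 and TAGLN, the usual markers of activated fibroblasts, thus had smaller folds than most collagens, and both were expressed by LNCaP cells alone.

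Mesenchymal genes were mostly under 1 CPM in LNCaP cells alone. Of 23 measured, 15 entered only through the coculture, and of the other 8, 4 lay past 2-fold upward and 0 downward, with a median of 1.04. LGALS1, galectin 1, had 12 and 513 counts (43.7-fold, 24.8 to 85.1), and the repressor gene ZEB1 1 and 37. VIM, vimentin, had 1559 and 5239 counts. TWIST1, a transcription factor of the same list, had 357 and 276 counts and was 1.27-fold lower (1.08 to 1.49). Epithelial genes were not lower beside them: CDH1, E-cadherin, was 1.38-fold higher (12594 and 16989 counts, 1.35 to 1.41), EPCAM 1.30-fold higher (1234 and 1571 counts), and the keratin gene KRT8 1.05-fold higher (9729 and 9983 counts). Of 25 luminal and epithelial genes, 18 were above 0, 0 reached 2-fold, and the median was 0.19. KRT19 (170 and 108 counts, 1.54-fold lower, 1.20 to 1.98) and the repressor gene OVOL1 (233 and 151 counts, 1.51-fold lower, 1.23 to 1.87) were the members past 1.5-fold.

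Ligands and receptors of stromal growth factor pathways were then examined. Of 20 measured ligand genes, 9 entered only through the coculture, and of the other 11, 1 lay past 2-fold upward and 0 downward, with a median of 0.34. HGF, the ligand of MET, had 0 counts alone and 37 with fibroblasts (at least 12.6-fold), and MET itself had 12 and 65 (5.54-fold, 2.96 to 11.3). NRG1, a ligand of the ERBB receptors, had 0 and 30 counts (at least 10.2-fold), while its receptor gene ERBB3 had 4249 and 4630 (1.11-fold). FGF7, a stromal ligand of epithelial FGF receptors, had 0 and 9 counts (at least 3.07-fold), and IGF1 had 13 and 9, an interval that spans no change (0.708-fold, 0.267 to 1.79). The ligand most expressed by LNCaP cells, VEGFA, was lower, with 18518 and 14507 counts (1.25-fold lower, 1.22 to 1.28).

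Among 17 measured receptors, 5 entered only through the coculture, and of the other 12, 1 lay past 2-fold upward and 1 downward. PDGFRA, a marker of mesenchymal cells, had 0 and 210 counts (at least 71.5-fold) and PDGFRB 8 and 265 (33.9-fold, 16.9 to 79.2). The lower receptor was FGFR3, with 132 and 56 counts (2.31-fold lower, 1.68 to 3.21). EGFR, at 9705 and 7506 counts, was 1.27-fold lower (1.23 to 1.30) and IGF1R, at 1484 and 1013, was 1.43-fold lower (1.32 to 1.55). Of 6 measured IGF binding proteins, 3 entered only through the coculture, and of the other 3, 1 lay past 2-fold upward. IGFBP5 had 21 and 1445 counts (70.3-fold, 45.8 to 114), whereas IGFBP2, which LNCaP cells express, had 1854 and 1473 (1.23-fold lower, 1.15 to 1.32).

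TGF-beta and BMP signalling genes were followed next. Of 27 measured, 4 entered only through the coculture, and of the other 23, 2 lay past 2-fold upward and 0 downward, with a median of -0.02. The ligand gene TGFB1 had 146 and 229 counts (1.60-fold, 1.30 to 1.99). The BMP antagonist gene GREM1 (0 and 165 counts, at least 56.2-fold) was among the higher genes, as was FSTL1, a follistatin-like gene (141 and 636 counts, 4.61-fold, 3.84 to 5.57). ID genes, which BMP signals induce, were all below 0, 1 of 3 past 2-fold. ID3 (chr1:23557926-23559501), an inhibitor of differentiation, had 881 and 249 counts and was 3.46-fold lower (3.00 to 4.00). ID2 was 1.64-fold lower (208 and 124 counts, 1.31 to 2.07) and ID1 1.27-fold lower (389 and 300 counts, 1.09 to 1.48). SMAD9, a BMP-responsive SMAD gene, was 1.79-fold lower (1025 and 560 counts) and the pseudoreceptor gene BAMBI 1.60-fold lower (362 and 221 counts). The type I receptor gene BMPR1B was 1.86-fold higher (828 and 1504 counts, 1.70 to 2.02). All 3 measured ID genes were also below 0 in the PC-3 pair, with a median of -0.51 against -0.71 here.

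Wnt genes, cytokines and immediate early genes differed in a few members each. The Wnt list had 15 measured genes, 4 of which entered only through the coculture. Its other 11 had 1 past 2-fold upward and 2 downward, with a median of -0.05. WNT5A, a noncanonical Wnt ligand, had 49 and 446 counts (9.30-fold, 6.92 to 12.8). SFRP1, a secreted Wnt inhibitor that entered only through the coculture, had 3 and 131. The ligand genes WNT10A (56 and 16 counts) and WNT2B (56 and 22) were lower by 3.42-fold (1.94 to 6.40) and 2.49-fold (1.50 to 4.28). Of 11 measured cytokine genes, 3 entered only through the coculture, and of the other 8, 2 lay past 2-fold upward and 8 were above 0. The chemokine gene CXCL12 had 16 and 63 counts (4.02-fold, 2.30 to 7.46), CCL2 had 0 and 6, and IL6 was at 0 in both libraries. Of 24 measured immediate early genes, 2 entered only through the coculture, and of the other 22, 4 lay past 2-fold upward and 0 downward, among them EGR1 (64 and 302 counts, 4.82-fold, 3.67 to 6.42) and IER3 (20 and 122 counts, 6.23-fold, 3.87 to 10.6). FOS (464 and 583 counts) and JUN (4363 and 4210) were within 1.5-fold.

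Interferon-stimulated genes were higher in the coculture, most clearly those that LNCaP cells expressed little. Of 33 measured, 5 entered only through the coculture, and of the other 28, 6 lay past 2-fold upward (1.40% of such genes did) and 0 downward, 26 were above 0, and the median was 0.61. The promoters of these genes often carry GAAA, any 2 bases and GAAA again, the core of the element bound by interferon-activated factors. Promoters from RefSeq (GRCh38.p14, 250 bases before to 50 after the start) matched 24 of the 33, and 16 of the 24 (66.7%) held the motif on either strand, against 295 of 10934 measured genes with a promoter (2.70%). The 4 windows of 30 bases that follow come from genes described next, with the motif in capitals (for IFIT3, its complement).
IFIT3, chr10:89327831-89327860, plus strand: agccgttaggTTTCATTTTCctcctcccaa
IFI44L, chr1:78620274-78620303, plus strand: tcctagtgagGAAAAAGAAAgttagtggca
BST2, chr19:17405741-17405770, minus strand: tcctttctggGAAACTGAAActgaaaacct
IFI6, chr1:27672329-27672358, minus strand: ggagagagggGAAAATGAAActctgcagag

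IFIT3, which binds viral RNA with its partners, had 18 counts alone and 89 with fibroblasts (5.05-fold, 3.02 to 8.91), and IFIT1 had 29 and 115 (4.05-fold, 2.68 to 6.32). IFI44L had 4 and 35 counts (8.94-fold, 3.20 to 34.6), and BST2, which tethers virions to the cell surface, 5 and 33 (6.74-fold, 2.62 to 22.1). IFI6 had 173 and 390 counts (2.30-fold, 1.92 to 2.77), and the membrane protein gene IFITM1 45 and 219 (4.97-fold, 3.59 to 7.02). OAS2, a sensor of double-stranded RNA, had 0 and 46 counts, at least 15.7-fold higher. IFI44L, BST2 and OAS2 were under 1 CPM alone and are among the 5 members that entered only through the coculture. All 11 members past 2-fold, those 5 included, were under 20 CPM in the monoculture. The 8 members at 20 CPM or more had a median of 0.17, and 0 of them reached 2-fold. ISG15, a ubiquitin-like modifier, had 544 and 581 counts (1.09-fold, 0.969 to 1.23) and OAS3 605 and 604. The 16 genes with the motif had a median of 0.85 and the 8 with a promoter but no motif 0.61. Members that entered only through the coculture were not set apart here, and IFI44L and BST2 are among the 16. Nothing is therefore read from the gap between these medians. In the PC-3 pair, where monoculture levels were far higher (2166 counts for IFIT3, 3674 for BST2), the list median was 0.40.

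Antigen presentation genes were higher by smaller folds. Of 17 measured MHC class I and antigen processing genes, 1 entered only through the coculture. Of the other 16, 15 were above 0, 8 were at least 1.5-fold higher and 0 reached 2-fold, and the median was 0.55. Of all 13543 genes at 1 CPM or more alone, 601 were at least 1.5-fold higher. HLA-E, which presents leader peptides to natural killer cells, had 567 and 1033 counts (1.86-fold, 1.68 to 2.07), HLA-B 2959 and 4640 (1.60-fold, 1.53 to 1.68) and the peptide transporter gene TAP1 580 and 975 (1.72-fold, 1.55 to 1.91). B2M, the light chain of class I molecules, was 1.27-fold higher (4145 and 5159 counts, 1.22 to 1.33). HLA genes resemble each other, so the split of reads between them is uncertain. The PC-3 median for this list was 0.26.

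Androgen-regulated genes stayed close to their level alone. Of 32 measured, 1 entered only through the coculture, and of the other 31, 22 were above 0, 0 lay past 2-fold upward and 1 downward, and the median was 0.14; the list took 1.30% of counts alone and 1.51% with fibroblasts. Promoter windows of KLK3, which encodes prostate-specific antigen, and of UGT2B15, which inactivates androgens, show AGAACA, the half-site bound by steroid receptors, in capitals. It lay within 3 of 25 promoters of androgen-regulated genes (12.0%) and 8.93% of all 10934 on either strand, so it was not common in these windows.
KLK3, chr19:50854733-50854762, plus strand: tctagtaattgcAGAACAgcaagtgctagc
UGT2B15, chr4:68670807-68670836, minus strand: tgtaaacataaaAGAACAccaaacacacta

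KLK3 had 60226 and 74134 counts (1.26-fold, 1.24 to 1.27). TMPRSS2, a serine protease gene, was 1.35-fold higher (21261 and 27990 counts, 1.32 to 1.37), FKBP5, a chaperone of steroid receptors, 1.58-fold higher (2501 and 3877 counts, 1.51 to 1.67) and the efflux pump gene ABCC4 1.70-fold higher (5031 and 8373 counts, 1.64 to 1.76). KLK2, a kallikrein, went the other way, with 8461 and 7507 counts (1.10-fold lower, 1.07 to 1.14). KLK4, another kallikrein, was 1.09-fold lower (6663 and 5962 counts) and turned direction once folds were corrected for transcript length and GC. Well-known androgen targets thus lay on both sides of 1. FOXA1, a pioneer factor of prostate cells, had 10569 and 9844 counts, and the homeobox gene HOXB13 10000 and 10233. GATA2, another prostate transcription factor, was lower at 11147 and 7529 counts (1.45-fold, 1.41 to 1.49). NR3C1, the glucocorticoid receptor gene, had 11 and 62 counts (5.76-fold, 3.01 to 12.1), and the PC-3 libraries had 755 and 844. FOLH1, which encodes prostate-specific membrane antigen, was 1.52-fold higher (14357 and 21307 counts, 1.48 to 1.55).

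Of 15 measured genes of androgen synthesis and inactivation, 2 entered only through the coculture, and both lay past 2-fold upward. They were AKR1C1 (8 and 21 counts) and HSD17B6 (10 and 23). Of the other 13, 3 lay past 2-fold downward (3.12% of such genes did) and 0 upward (1.40%). All 3 were glucuronosyltransferase genes of the UGT2B family. UGT2B15 had 826 and 403 counts (2.01-fold lower, 1.78 to 2.26), UGT2B17 2645 and 1463 (1.77-fold lower, 1.66 to 1.89), UGT2B28 44 and 7 (6.15-fold lower, 2.75 to 16.2) and UGT2B11 213 and 88 (2.37-fold lower, 1.84 to 3.07). These genes are close copies of each other, so reads may be shared among them. The median was 0.05 over all 15 genes and -0.07 over the 13 at 1 CPM or more alone. SRD5A1, a 5-alpha reductase gene, was 1.25-fold higher (794 and 968 counts) and AKR1C3, which makes testosterone, had 45 and 47 counts.

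Ribosomal protein genes were lower almost throughout. Of 80 genes, 21 were at least 2-fold lower (3.00% of all genes were) and 0 higher, 53 were at least 1.5-fold lower, 78 were below 0, and the median was -0.72. Their share of all counts was 6.19% alone and 3.92% with fibroblasts. The small subunit had 13 of 32 genes at least 2-fold lower (median -0.85) and the large subunit 8 of 48 (median -0.69). Ribosomal protein genes start at a pyrimidine tract that couples their translation to growth signals. The windows from 10 bases before to 20 after the RefSeq start show CTTTC or CTTTTC in capitals for 3 of the lowest genes and for RPL4, the large-subunit gene nearest to no difference.
RPL39, chrX:119791611-119791640, minus strand: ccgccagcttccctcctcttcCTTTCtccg
RPS21, chr20:62387093-62387122, plus strand: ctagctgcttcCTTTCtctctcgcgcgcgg
RPS12, chr6:132814559-132814588, plus strand: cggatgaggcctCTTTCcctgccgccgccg
RPL4, chr15:66504836-66504865, minus strand: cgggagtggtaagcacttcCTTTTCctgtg

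The motif on the gene's own strand lay in 38 of 64 ribosomal protein genes with a promoter entry (59.4%) and in 533 of all 10934 (4.87%). Ribosomal genes with the motif had a median of -0.80 and those without it -0.69, so both sets were lower. RPL39 had 2254 and 599 counts (3.68-fold lower, 3.36 to 4.04). RPS21 had 6091 and 1810 (3.29-fold lower, 3.12 to 3.47), RPS12 7285 and 2368 (3.01-fold lower, 2.87 to 3.15) and RPL36 13195 and 4964 (2.60-fold lower, 2.52 to 2.69). RPL4 had 34152 and 33519 counts, a fold of 1.00 (0.988 to 1.02), and RPS26 3959 and 4066 (1.05-fold higher, 1.00 to 1.10). Many of these genes have processed copies elsewhere in the genome, so their counts are uncertain to the degree that reads were shared. All 80 were below 0 in the PC-3 pair as well (51.0% of its genes were), with a median of -0.45.

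Transcript length moved with this difference. Of well-expressed genes (20 CPM or more in LNCaP cells alone), the 34 with transcripts of 500 bases or less had a median of -0.88, the 200 of 500 to 750 bases -0.41, the 701 of 1000 to 1500 bases -0.10 and the 1893 of 3000 to 4500 bases 0.07. In the PC-3 pair the shortest classes also had the lowest medians, -0.46 and -0.30, and from 3000 bases up its medians were 0.02, 0.04 and 0.07, against 0.07, 0.05 and -0.0018 here. Ribosomal protein genes were lower than other genes of like length: -0.80 (31 genes) against -0.35 (169 genes) at 500 to 750 bases, -0.82 (12) against -0.22 (278) at 750 to 1000, and -0.61 (19) against -0.09 (682) at 1000 to 1500. After a correction for length and GC content their median was -0.47. The count of genes at 20 CPM or more that were at least 2-fold lower was 67. A recount gave 30 after this correction and 18 among transcripts of 1000 bases or more. The part of length in the result, beyond these values, was not tested.

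**Figure D3:**
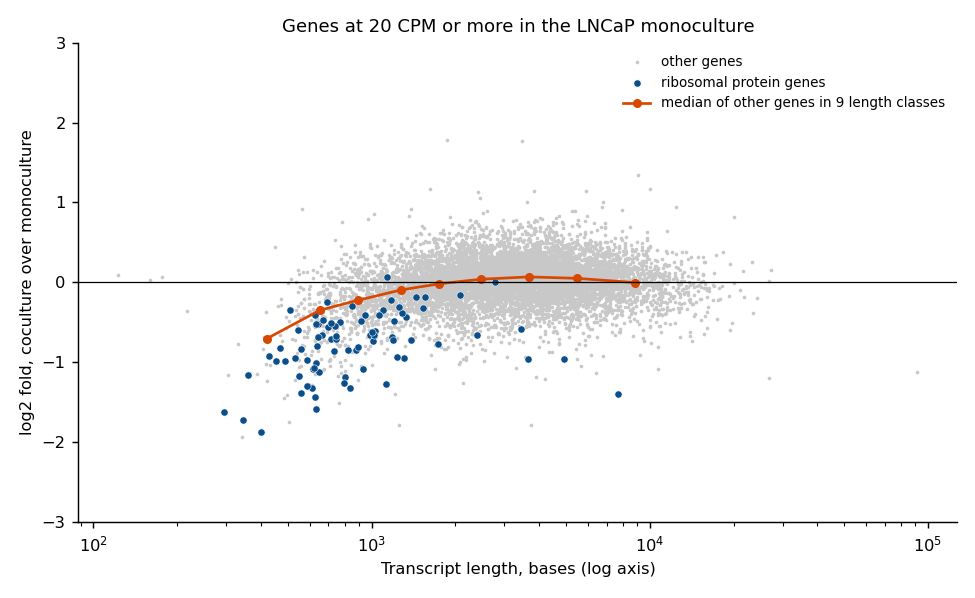
Log2 fold of the LNCaP coculture over the monoculture (y axis) against transcript length in bases (log x axis) for genes at 20 CPM or more alone, 1 point per gene, with 1 gene above the drawn range. The line joins the medians of genes other than ribosomal protein genes in 9 length classes. It falls from 0.07 at 3000 to 4500 bases to -0.70 at 500 or less, and most ribosomal protein genes lie under it.

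Other short transcripts of cell metabolism were lower too. Of 79 nuclear-encoded respiratory chain and ATP synthase subunits, 7 were at least 2-fold lower (3.00% of all genes were), 24 at least 1.5-fold lower (8.81%) and 71 below 0 (49.3%), with a median of -0.39, or -0.18 after the correction for length and GC content. NDUFA1, a small subunit of complex I, had 733 and 250 counts (2.87-fold lower, 2.48 to 3.33), and UQCR10, of complex III, 1206 and 571 (2.07-fold lower, 1.87 to 2.29). Among transcripts of 1000 bases or more the list median was -0.29. Not all subunits were lower: ATP5F1B, a catalytic subunit of ATP synthase, was 1.10-fold higher (14476 and 15587 counts) and SDHA, of complex II, 1.14-fold higher (1912 and 2136 counts). The PC-3 median was -0.32. Of 77 mitochondrial ribosomal proteins, 60 were below 0 (49.3% of all genes were), 1 was at least 2-fold lower (3.00%), and the median was -0.20.

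Translation factors were closer to no difference than the ribosome was. Their transcripts were also longer, with a median of 2330 bases against 784 for ribosomal proteins, and the part of length was not tested. Of 43 initiation and elongation factors, 0 reached 2-fold and 2 were at least 1.5-fold lower, with a median of -0.03. EEF1A1, the most abundant of them, had 160897 and 120322 counts (1.31-fold lower, 1.30 to 1.32), EEF1B2 3119 and 1764 (1.73-fold lower, 1.63 to 1.84) and TPT1 16946 and 9734 (1.70-fold lower, 1.66 to 1.75). EIF5B was 1.33-fold higher (2006 and 2601 counts, 1.25 to 1.41).

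Host genes of small nucleolar RNAs, whose introns yield guides for ribosomal RNA modification, were lower as well. Of 19, 3 were at least 2-fold lower (3.00% of all genes were), 10 at least 1.5-fold lower (8.81%) and 18 below 0 (49.3%), with a median of -0.65, or -0.32 after the length and GC correction. SNHG19 had 390 and 98 counts (3.89-fold lower, 3.11 to 4.91), GAS5 216 and 88 (2.40-fold lower, 1.87 to 3.11) and SNHG29 10095 and 5111 (1.93-fold lower, 1.87 to 2.00). Of genes with 100 counts or more alone, the lowest was RN7SL1 (chr14:49586580-49586878), the RNA of the signal recognition particle, with 249 and 21 counts (11.6-fold lower, 7.43 to 19.1). Its near copy RN7SL2 had 278 and 28 (9.72-fold lower, 6.58 to 14.9), and the PC-3 libraries had 475 and 514 counts of RN7SL1. These RNAs have no poly(A) tail. The nuclear RNA genes MALAT1 (23202 and 15419 counts, 1.47-fold lower) and NEAT1 (30151 and 21589, 1.37-fold lower) were lower. At 20 CPM or more alone, 23 antisense genes had a median of -0.11 and 32 intergenic long noncoding RNAs -0.19, against 0.02 for 8143 protein-coding genes. The library kit does not mark strand, so antisense counts are uncertain.

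Mitotic genes were lower in a narrow band. Of 46 measured, 43 were below 0 (49.3% of all genes were), 6 were at least 1.5-fold lower (8.81%) and 1 at least 2-fold lower (3.00%). Their median was -0.35. MKI67, the Ki-67 antigen, had 1853 and 1457 counts (1.24-fold lower, 1.16 to 1.33), CDK1, the mitotic kinase, 1974 and 1311 (1.47-fold lower, 1.37 to 1.58), and UBE2C, which degrades cyclins at mitotic exit, 520 and 278 (1.83-fold lower, 1.58 to 2.12). CENPA, the centromere histone, had 127 and 50 counts (2.49-fold lower, 1.78 to 3.52). Outside the list, CKS2, a subunit of the mitotic kinase that was among the lowest well-expressed genes, had 842 and 337 (2.44-fold lower, 2.15 to 2.78). The median was -0.35 after the length and GC correction too. In the PC-3 pair the mitotic median was 0.29, and MKI67 had 1316 and 1990 counts. The difference between the pairs was not tested.

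Genes of the earlier cell cycle phases were nearer to no difference. Of 41 DNA replication genes, 27 were below 0 and 0 reached 2-fold, with a median of -0.20. The helicase genes MCM2 (2256 and 1905 counts) and MCM4 (2663 and 2660) were 1.16-fold lower (1.09 to 1.23) and equal (fold 1.02, 0.967 to 1.08). GINS1, of the same helicase complex, was 1.64-fold lower (1022 and 609 counts, 1.48 to 1.82). The G1 cyclin gene CCND1 had 11589 and 11293 counts (fold 0.996, 0.970 to 1.02) and CCNE2 177 and 75 (2.31-fold lower, 1.75 to 3.07).

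Chaperones of the endoplasmic reticulum were higher by small folds. Of 28 measured genes of this list, 22 were above 0, with 5 past 1.5-fold upward and 1 downward, and the median was 0.39 (0.06 in the PC-3 pair). Among all 13543 genes at 1 CPM or more alone, 6587 were above 0, with 601 past 1.5-fold upward and 1244 downward. HSPA5, the main luminal chaperone (chr9:125234853-125241343), had 11851 and 18128 counts (1.56-fold, 1.53 to 1.60), HSP90B1 15874 and 24322 (1.57-fold, 1.53 to 1.60) and the disulfide isomerase gene PDIA3 9268 and 14661 (1.62-fold, 1.58 to 1.66). DDIT3, a stress-induced transcription factor of the same list, was 1.37-fold lower (817 and 583 counts, 1.23 to 1.53), so the chaperones and the stress factor differed in direction. Lysosomal genes were also above 0 in 21 of 28 cases (median 0.29), with LAMP1 at 1588 and 2458 counts (1.58-fold, 1.48 to 1.69) and the protective protein gene CTSA at 292 and 490 (1.71-fold, 1.48 to 1.99).

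Hypoxia and glycolysis genes were split by level. Of 36 measured, 3 were at least 2-fold higher, 1 of which entered only through the coculture, 0 were as far lower and 25 were below 0, with a median of -0.07. The 3 were CA9, a carbonic anhydrase (9 and 140 counts, 15.9-fold, 8.14 to 35.5), ADM, adrenomedullin (22 and 183 counts, 8.50-fold, 5.45 to 13.9), and SLC2A3, a glucose transporter (17 and 100 counts, 6.01-fold, 3.57 to 10.7), all low in LNCaP cells alone. The glycolytic enzymes that make up most of the list were level or lower: LDHA had 48438 and 48796 counts (1.03-fold, turned slightly below 1 by the length and GC correction) and PGK1 53529 and 45391 (1.15-fold lower, 1.14 to 1.17). Of 24 cholesterol synthesis genes, 0 reached 1.5-fold. FASN, fatty acid synthase, had 63153 and 58239 counts (1.06-fold lower, 1.05 to 1.07), and turned slightly higher by the length and GC correction.

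**Figure D4:**
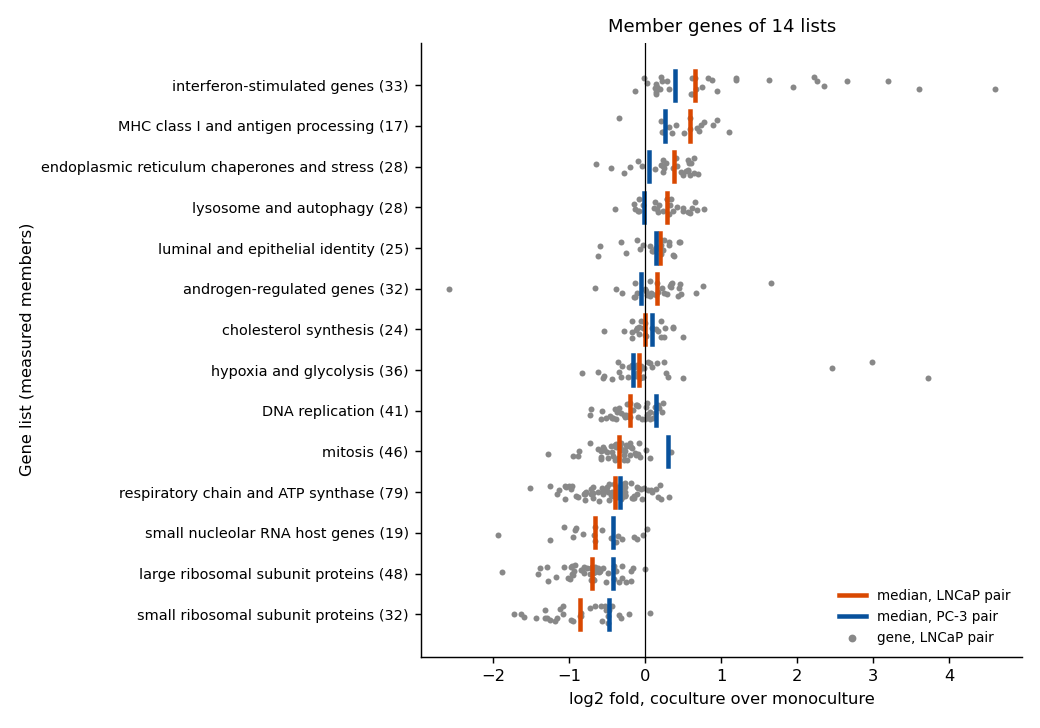
Log2 fold of the coculture over the monoculture (x axis) for each measured member of 14 gene lists (rows, number of genes in brackets); grey points are genes in the LNCaP pair, and bars are list medians in the LNCaP and PC-3 pairs. Medians run from 0.65 for interferon-stimulated genes to -0.85 for small ribosomal subunit proteins in the LNCaP pair, and the mitosis medians lie on opposite sides of 0 in the pairs. Points and medians include members that entered only through the coculture. Leaving out the 5 such interferon-stimulated genes, that median is 0.61.

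The 12 well-expressed genes past 2-fold upward included COL1A1, VIM and COL6A2 and, below them, the TNF receptor family gene TNFRSF19 (608 and 1340 counts, 2.25-fold, 2.04 to 2.48) and the transcriptional repressor gene TRPS1 (578 and 1269 counts, 2.24-fold, 2.03 to 2.48). NRP1, a coreceptor for semaphorins and VEGF (chr10:33177493-33334667), had 2320 and 5027 counts (2.21-fold, 2.11 to 2.33), and the PC-3 libraries 18415 and 21376. PTGER4, a prostaglandin E2 receptor gene, had 326 and 709 (2.22-fold, 1.95 to 2.54), and PTGS2, which makes its ligand's precursor, 2 and 44. CPE, a prohormone-processing carboxypeptidase, had 1434 and 3089 counts (2.20-fold, 2.07 to 2.35), BCHE, butyrylcholinesterase, 2894 and 5882 (2.08-fold, 1.99 to 2.17) and OR51E1, an olfactory receptor gene expressed in prostate, 588 and 1161 (2.02-fold, 1.83 to 2.23). The PC-3 libraries had 0 counts of OR51E1 and 16 and 33 of BCHE. At the other end, ADRA2A, the alpha-2A adrenergic receptor gene (chr10:111077029-111080907), had 3394 and 964 counts (3.45-fold lower, 3.21 to 3.70). TMSB10, a small actin-binding protein gene, had 2843 and 1050 counts (2.65-fold lower, 2.47 to 2.85). PRAC1 and PRAC2, short genes beside HOXB13 expressed in prostate and gut, had 1121 and 496 (2.21-fold lower, 1.99 to 2.46) and 427 and 123 (3.40-fold lower, 2.77 to 4.19).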

How the data were processed

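RNA sequencing of engineered tissues gave 1 table of estimated counts per gene, which the authors deposited with 1 column for each of 4 libraries. Per the submitters' processing notes, FastQC, STAR, Partek and hg38 were used; versions, roles and the annotation are not given in the sources used here. The counts need not be whole and were rounded. Per the labels' protocols the kit was TruSeq RNA v2, which does not mark strand. CPM, log2 folds (prior count 2) and exact 95% binomial intervals were computed in Python 3.11.15 with scipy 1.17.1; TMM factors (edgeR 4.0.16) and DESeq2 1.42.0 size factors served as alternatives, and no test was run. The calculation was tested on simulated data. Libraries held 15520263 to 15865699 counts, and intervals cover counting error only.

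Transcript length and GC content came from GENCODE 29, and promoters and positions from RefSeq on GRCh38.p14. The members and gene lists were chosen with earlier results of these data known. Genes were named if marked as core to a list, if among the 5 highest or 5 lowest of a list with 100 counts or more, if among the 25 highest or lowest at 20 CPM or more, if among the 25 most counted of those at 3 counts or fewer alone, or if among the 15 lowest with 100 counts or more alone. Outside this rule, AKR1C1, AKR1C3, B2M, BST2, CDK1, COL4A1, FOS, HSD17B6, IFI44L, IFIT3, KDR, LDHA, LGALS1, MCM2, MCM4, MMP1, NR3C1, OAS2, P4HA1, PGK1, PLAT, PLAUR, PRAC1, PTGS2, THBS1, TIMP2, UGT2B28, WNT10A and WNT2B were chosen after their values were seen. Some genes that the rule names are not reported here.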

Additional observations from a re-analysis of the deposited data

Results flagged for a closer look

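Some results pointed in opposite directions in the LNCaP and PC-3 pairs, each with 1 library a group, and the differences between the pairs were not tested. The mitosis median log2 fold was -0.35 in the LNCaP pair and 0.29 in the PC-3 pair, and that of DNA replication -0.20 and 0.15. The replicative polymerase gene POLE was at -0.58 and 0.51. The laminin gene LAMA3 was at -0.81 and 0.43. The aldehyde dehydrogenase gene ALDH1A3 was at 0.47 and -0.39, and the phosphatase gene DUSP5 at 0.81 and -0.39. The nuclear RNA gene MALAT1 was at -0.56 and 1.00, and TALAM1, which lies antisense to it and cannot be separated from it without strand, at -0.68 and 1.04.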

How the results depend on the processing

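With 1 library a group there was no replicate to leave out. No paired analysis was possible because each group had 1 library. TMM factors, DESeq2 size factors, unrounded counts and a total over genes at 1 CPM or more moved no count of genes past 1.5 times and no list median by 0.1. The correction for length and GC content moved 16 of 63 list medians by 0.1 or more, a filter of 5 CPM 16, no filter 10, genes at 1 CPM or more alone 20 and a prior count of 0.5 moved 3. The counts depended on the low-value filter: with none, 1287 genes passed 2-fold upward and 748 downward, and 2132 and 1926 passed 1.5-fold; with 5 CPM, these were 240 and 150, and 542 and 673. With genes at 1 CPM or more alone, chosen after seeing the data, 189 passed 2-fold upward and 601 passed 1.5-fold. Among transcripts of 1000 bases or more, an alternative chosen after seeing the data, 240 were 2-fold lower and 766 were 1.5-fold lower. At 20 CPM or more, the count of genes 2-fold lower was 67, and a recount gave 18 in these transcripts and 30 with the correction for length and GC content. Genes near the floor alone numbered 146 at a limit of 0 counts and 423 at 10. The nuclear noncoding RNA median reversed to 0.18 in long transcripts. Under the length and GC correction, the log2 folds of KLK4 reversed to 0.013, of FASN to 0.016 and of LDHA to -0.0036.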

Other observations

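Proteasome, splicing, p53 and polyamine genes lay near their level alone. Of 31 proteasome genes, 15 were above 0 and 0 reached 2-fold, with a median log2 fold of -0.01. Of 23 p53 targets, 14 were above 0 and 0 reached 2-fold (median 0.03), and of 16 polyamine genes 9 were above 0 and 0 reached 1.5-fold (median 0.06). Splicing factors had a median of -0.10 over 43 genes. Of 11 iron handling genes, 10 were above 0, with a median of 0.16.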
